A study of Mus musculus with 4 samples.

Results

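The cytosolic ribosomal protein genes were examined by RNA sequencing in neural stem cells of female mice with and without Smchd1, a chromatin protein that acts on the inactive X chromosome. Members were the rows whose symbol is Rpl or Rps followed by a number, with an optional closing letter or copy digit, or is Rplp0, Rplp1 or Rplp2. The rule found 84 genes among the 25965 rows of the count table. Of these, 81 had counts in every library and 81 entered the test of total counts. Rpl10l and Rpl39l, testis paralogues in other work, had a count of 0 in all 4 libraries, and Rpl3l had 0 or 1 count.

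The cells carried Smchd1 del/del, made by transducing the line with MSCV-Cre-puro, a retrovirus that brings Cre recombinase and puromycin resistance, or Smchd1 del/fl, in which the same lines were left untransduced. Puromycin was given from 24 h and cells were harvested 7 days after transduction, so loss of Smchd1 cannot be told apart from transduction and drug selection. Lines came from E14.5 embryos on a mixed C57BL/6, 129 and Castaneus background. Every library shares a maternal 129 X chromosome with the Xist deltaA allele and a paternal Castaneus (Cast) X, so that Xist acts from the Cast X. There were 2 libraries per genotype, from 2 lines called A and B, each line giving 1 del/del and 1 del/fl library. A study design of 3 per genotype is stated, and further lines were not analysed here.

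The libraries held 33572648 and 31823877 total counts in del/del lines A and B, against 29873400 and 34018500 in del/fl lines A and B. Smchd1 had 785 and 852 counts in del/del cells, against 2779 and 3461 in del/fl cells, in line order A then B, which is used throughout. Summed neural stem cell markers (Nes, Sox2, Pax6, Fabp7, Slc1a3, Hes5, Vim, Sox9) lay between 8385 and 9555 CPM (a gene's counts scaled to a common library total) in every library. Singly, 2 of these 8 were higher and 2 lower in del/del cells without overlap (23.2% and 22% of all genes). Slc1a3 had 2398 and 2625 CPM in del/del cells and 1192 and 1386 CPM in del/fl cells. It was the 1 called higher with line as a block (edgeR; 3.71% of all genes). Nes had 1280 and 905 CPM in del/del cells and 1654 and 1357 CPM in del/fl cells. Microglial markers summed to at most 11.2 CPM with Cx3cr1 at 0, and mesenchymal and endothelial markers to at most 27.2 CPM with Cdh5 and Lum at 0. Astrocyte markers summed to 990 and 915 CPM in del/del cells and 565 and 574 CPM in del/fl cells. Of the 8 astrocyte markers, 7 were higher in del/del cells without overlap (23.2% of all genes) and 5 were called higher with line as a block (edgeR; 3.71% of all genes). Oligodendrocyte markers summed to 818 and 862 CPM in del/del cells and 997 and 883 CPM in del/fl cells, although 5 of the 6 tested had a log2 fold change above 0. Neuronal markers summed to 73.2 and 42.1 CPM in del/del cells and 178 and 85.3 CPM in del/fl cells. Most of that sum was Syt1, with 61.2 and 26.0 CPM in del/del cells and 169 and 72.1 CPM in del/fl cells, and of the 6 tested neuronal markers 3 were below 0 and 3 above.

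A cytosolic ribosome is built from ribosomal RNA and a fixed set of proteins of the small (Rps) and large (Rpl) subunits. For the most part these proteins are made in equal amounts. Most of these genes are highly expressed in dividing cells, and their mRNAs usually start with a run of pyrimidines, the 5' terminal oligopyrimidine (TOP) motif, through which mTOR signalling controls their translation. In mammals they have also left many processed pseudogenes, intronless copies of the mRNA elsewhere in the genome, and short reads from gene and copy can be hard to separate. The sources used here do not state how reads matching several places were handled or whether counting used strand.

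Ribosomal protein genes as a group took a smaller part of the del/del libraries, but no single gene passed the test. They held 0.673% and 0.824% of counts in del/del cells, against 0.875% and 0.926% in del/fl cells. Both del/del libraries lay below both del/fl libraries, and the mean difference was -0.152 percentage points (0.748 ± 0.106% in del/del and 0.900 ± 0.0362% in del/fl cells, SD, n = 2 each). The two-sided exact permutation test gave p = 0.333, and a design of 2 against 2 cannot go lower than 0.33. The 95% Wilson interval of each share was at most 0.00334 points to either side, which covers counting error only. By line, del/del minus del/fl came to -0.201 points for A and -0.102 points for B. In bulk cultures, fewer cells rich in these mRNAs and less of them per cell cannot be told apart. The astrocyte and oligodendrocyte marker sums and Syt1, given above, were also separate between genotypes, and their part in this difference was not tested.

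**Figure D1:**
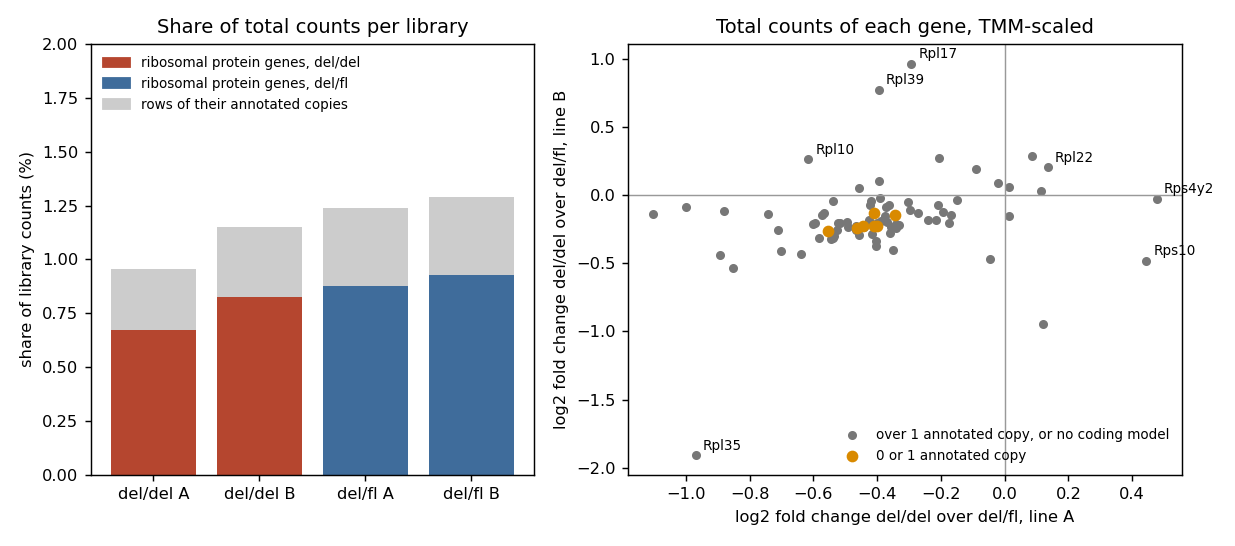
Left, share of all counts in each library (percent) held by the 84 ribosomal protein genes (coloured) and by the rows of their annotated copies (grey), with del/del libraries left of del/fl libraries. Right, log2 fold change of each counted gene, del/del over del/fl, in line A (x) and line B (y), each point a gene; 65 of 81 lie below 0 in both lines, and the 7 with 0 or 1 annotated copy (orange) lie close together.

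In the test of total counts, edgeR's quasi-likelihood fit over 14860 genes with Benjamini-Hochberg adjustment, 0 of 81 ribosomal protein genes were called in either direction, as were 0% of all genes tested. At an unadjusted p below 0.05, 17 members were lower and 0 higher in del/del cells, where 4.83% of all genes were lower and 6.86% higher. With line as a block, again 0 of 81 were called, against 1.89% of all genes called lower and 3.71% called higher, and 43 members were lower and 0 higher at an unadjusted p below 0.05, where 13.6% of all genes were lower and 17.2% higher. DESeq2 without the block called 0 members, where it called 0.774% of all genes lower and 1.78% higher. With the block it called 10 members lower and 0 higher, where it called 2.83% of all genes lower and 5.17% higher. They include Rps2, Rpl27, Rpl35, Rps3, Rps21, Rps14, Rps15 and Rpl8, so the call for these depends on the tool.

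**Figure D2:**
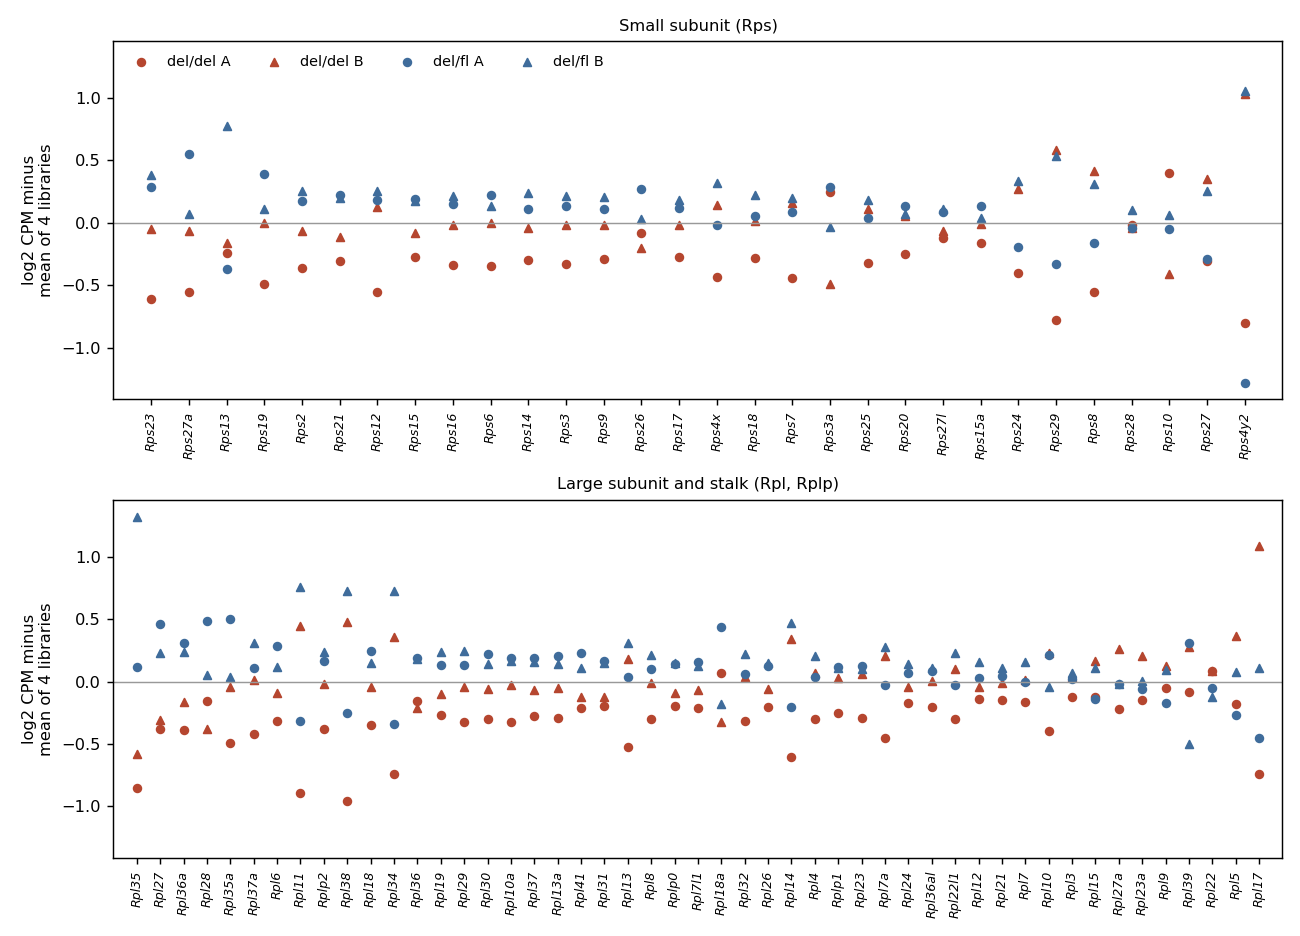
Level of 79 of the 81 tested members in each library, as log2 CPM minus the gene's mean over the 4 libraries (y), with genes in order of log2 fold change (x), for the small subunit above and the large subunit and stalk below. Red is del/del and blue del/fl, circles are line A and triangles line B; for most genes the del/del circle is the lowest point, and Rpl11, Rpl38, Rpl34 and Rps4y2 split by line.

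The direction was shared by most members. The log2 fold change was below 0 for 70 of 81, where 48.2% of all genes were below 0, and its median was -0.29, where that of all genes was 0.01. Both del/del libraries lay below both del/fl libraries in CPM for 49 members, where 22% of all genes did so. They lay above for 1 member, Rpl22, where 23.2% of all genes did so. Within lines the median was -0.40 for line A and -0.19 for line B, and 65 members were below 0 in both, where 36.4% of all genes were. Line A carried the larger part: without its del/del library the median was -0.18, and without the del/del library of line B it was -0.48.

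Small and large subunit genes had similar medians. Of 32 small subunit genes 29 were below 0, with a median of -0.30, and of 46 tested large subunit genes 38 were below 0, with a median of -0.28. The stalk genes Rplp0, Rplp1 and Rplp2, whose proteins recruit translation factors to the large subunit, were all below 0 with a median of -0.29. The spread among members was wide, between -1.55 for Rpl35 and 0.57 for Rpl17, and both of these were among the members with few counts.

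A few members split by line rather than by genotype. Rpl11 had 7.15 and 18.1 CPM in del/del cells, against 10.7 and 22.4 CPM in del/fl cells. Rpl38 had 5.66 and 15.3 CPM in del/del cells, against 9.24 and 18.2 CPM in del/fl cells. Rpl34 had 7.18 and 15.4 CPM in del/del cells, against 9.47 and 19.9 CPM in del/fl cells. In all of these line B was higher than line A in both genotypes, and within each line del/del cells were the lower ones. Rps4y2, an autosomal relative of Rps4x, had 80 and 270 counts in del/del cells, against 51 and 293 in del/fl cells, so that its lines differed more than its genotypes. Rps29 had 13.5 and 34.7 CPM in del/del cells, against 18.4 and 33.5 CPM in del/fl cells, with the same split.

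Of the 11 members with a log2 fold change above 0, Rpl22 is described with the paralogues, and in the other 10 the genotypes overlapped. Rpl5, which carries 5S RNA to the ribosome, had 48.9 and 71.5 CPM in del/del cells, against 46.0 and 58.5 CPM in del/fl cells (log2 fold change 0.20, adjusted p = 0.750, edgeR). Rpl17, near the tunnel exit, had 46 and 154 counts in del/del cells, against 50 and 84 in del/fl cells, and its value of 0.57 comes from line B (-0.29 for line A, 0.97 for line B). Rpl15 had 65.7 and 80.5 CPM in del/del cells, against 65.0 and 77.2 CPM in del/fl cells.

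Some members have at most 1 close annotated copy. Copies outside the annotation were not sought, and whether reads of these members were shared with a copy was not tested. Rps3, Rpl8 and Rplp2 were among those with no annotated copy at 90% identity or more over 80% of the coding sequence. Rps9, Rpl4 and Rpl14 had 1, at 97.3%, 96.9% and 98.9% identity. All 7 tested members with 0 or 1 copy were below 0, with a median log2 fold change of -0.31, and 5 of them were lower without overlap, where 48.2% of all genes were below 0 and 22% were lower without overlap. Rps3, a small subunit protein at the entry of the mRNA channel, had 590 and 732 CPM in del/del cells, against 812 and 860 CPM in del/fl cells. Its log2 fold change was -0.34 (SE 0.14; adjusted p = 0.444, edgeR; adjusted p = 0.0798 with the block). Rpl8, a large subunit protein, had 565 and 691 CPM in del/del cells, against 748 and 805 CPM in del/fl cells. Rps9 had 352 and 426 CPM in del/del cells, against 464 and 497 CPM in del/fl cells. In each of these the 2 genotypes were separate and line B was the higher line.

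Rpl4 and Rpl14 differed more between lines than between genotypes. Rpl14 had 78.7 and 152 CPM in del/del cells, against 104 and 166 CPM in del/fl cells. Rpl4 had 710 and 916 CPM in del/del cells, against 898 and 1007 CPM in del/fl cells. For both, the del/del library of line B lay above the del/fl library of line A, while each line by itself was lower in del/del cells (-0.41 and -0.13 for Rpl14, -0.34 and -0.14 for Rpl4, lines A and B). The 6 members without an annotated copy at 90% identity include the barely counted Rpl3l and the uncounted Rpl39l. Together they held 0.160% and 0.197% of counts in del/del libraries and 0.217% and 0.230% in del/fl libraries.

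The start sites of some of these genes are shown for the TOP motif. The lines below are 30 bases of RefSeq sequence (GRCm38.p6) from 10 bases before to 20 after the annotated start, 5' to 3' on the gene's strand, for 5 of the members with 0 or 1 copy. Capitals mark the longest run of C and T that overlaps the 5 bases to either side of the start, as far as it lies in the window.
Rps3 (chr7:99483690-99483719, minus strand): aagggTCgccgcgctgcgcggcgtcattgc
Rps9 (chr7:3704031-3704060, plus strand): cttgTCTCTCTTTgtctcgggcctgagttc
Rpl4 (chr9:64173377-64173406, plus strand): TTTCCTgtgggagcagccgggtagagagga
Rpl14 (chr9:120571507-120571536, plus strand): ggCCCTCTCTCTTCTCgctgagcgccgcca
Rplp2 (chr7:141447641-141447670, plus strand): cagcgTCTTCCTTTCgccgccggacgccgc
Of 63 members matched to the table of starts, 24 (38.1%) had a run of at least 8 pyrimidines there, against 11.4% of 27025 genes in the table. A C followed by 4 pyrimidines at the start itself was found in 13 members (20.6%), against 3.01% of genes. The run at Rpl4 continues before the window, to 14 bases in all. Rps3 had a run of 2 bases at the start this table gives. Of members with more copies, Rpl41 had a run of 3 bases and Rpl39 and Rpl27 of 5 each at their annotated starts. The search depends on where the start is annotated, so a short run here does not show that an mRNA lacks the motif.

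The members with the lowest p in the total-count test, without the block or with it, were all lower in del/del cells. Rps2 and Rpl29 are named here for the fit with the block. Rpl27, a large subunit protein, had 13.9 and 14.6 CPM in del/del cells, against 24.9 and 21.1 CPM in del/fl cells (log2 fold change -0.70, SE 0.15; adjusted p = 0.401, edgeR; 0.0521 with the block). Rps21, a small subunit protein, had 65.1 and 74.6 CPM in del/del cells, against 94.3 and 92.7 CPM in del/fl cells (log2 fold change -0.43). Rps2, which lines the mRNA entry channel, had 102 and 126 CPM in del/del cells, against 149 and 157 CPM in del/fl cells (log2 fold change -0.43; adjusted p = 0.0541 with the block, edgeR). In these genes the groups did not overlap and both lines went the same way. Rps15 had 139 and 159 CPM in del/del cells and 192 and 190 CPM in del/fl cells. Rpl6 had 54.0 and 63.0 CPM in del/del cells and 81.5 and 72.9 CPM in del/fl cells. Rpl29 had 54.6 and 66.4 CPM in del/del cells and 74.8 and 80.8 CPM in del/fl cells. Rpl41, the smallest ribosomal protein, had 182 and 193 CPM in del/del cells and 246 and 226 CPM in del/fl cells.

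Rpl35, at the exit of the peptide tunnel, had the lowest fold change but few counts. It had 57 and 65 counts in del/del cells, against 99 and 260 in del/fl cells, a log2 fold change of -1.55 (SE 0.48; adjusted p = 0.406, edgeR). Its size, but not its direction, depends on the del/fl library of line B. Leaving out 1 library at a time gave between -2.03 and -0.84, and the lines gave -0.97 (A) and -1.91 (B). Its close copy Gm2000 had 5158 and 6507 counts in del/del cells, against 6271 and 8096 in del/fl cells, so the gene and its copies together gave log2 fold changes of -0.47 for line A and -0.24 for line B.

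The 4 X-linked members did not move together. Rps4x, a small subunit protein whose human counterpart has a Y-linked homologue, had 137 and 204 CPM in del/del cells, against 183 and 231 CPM in del/fl cells. Rpl36a had 4.17 and 4.87 CPM in del/del cells (140 and 155 counts), against 6.76 and 6.44 CPM in del/fl cells (202 and 219 counts). Both were lower in del/del cells in each line, although the libraries of Rps4x overlapped between genotypes. Rpl10, which joins the large subunit late in its assembly, had 13.4 and 20.7 CPM in del/del cells, against 20.5 and 17.2 CPM in del/fl cells, and Rpl39, which lines the peptide tunnel, had 33.0 and 42.4 CPM in del/del cells, against 43.3 and 24.7 CPM in del/fl cells. For these the lines went opposite ways, and their adjusted p values were 0.838 and 0.877 (edgeR).

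Of the genes whose symbol marks a paralogue, Rpl22 and its relative went opposite ways. Rpl22 had 218 and 218 CPM in del/del cells, against 198 and 189 CPM in del/fl cells, a log2 fold change of 0.17 (adjusted p = 0.506, edgeR; 0.168 with the block). Its paralogue Rpl22l1 had 38.8 and 51.1 CPM in del/del cells, against 46.6 and 55.8 CPM in del/fl cells (log2 fold change -0.19). Rps27l had 81.1 and 84.2 CPM in del/del cells and 93.9 and 95.1 CPM in del/fl cells. Its partner Rps27 had 10 and 15 counts in del/del cells and 9 and 15 in del/fl cells, too few to show a difference. Rpl36al was at -0.20, Rpl7l1 at -0.28 and Rpl7 at -0.16 on the log2 scale, and none of these passed the test (adjusted p of 0.419 to 0.610, edgeR).

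Other genes of ribosome production were also mostly below 0. Of all genes tested, 48.2% were below 0, 22% were lower without overlap and 23.2% higher without overlap. All 4 tested ribosomal proteins with other names were below 0, with a median log2 fold change of -0.30 and 0 called with the block. Among them Gnb2l1, the scaffold protein known as Rack1, had 705 and 806 CPM in del/del cells, against 871 and 918 CPM in del/fl cells, and Rpsa had 71.1 and 78.9 CPM in del/del cells, against 95.8 and 93.9 CPM in del/fl cells. Of 20 ribosome biogenesis genes 19 were below 0 with a median of -0.21, 0 were called, and 13 were lower and 1 higher in del/del cells without overlap. Nucleolin (Ncl) had 890 and 991 CPM in del/del cells and 1021 and 1092 CPM in del/fl cells, and nucleophosmin (Npm1) had 200 and 247 CPM in del/del cells and 272 and 298 CPM in del/fl cells. Of 15 other TOP mRNAs 14 were below 0 with a median of -0.14 and 0 called, and 8 were lower and 0 higher without overlap. The elongation factor Eef1a1 was at -0.07 and Eef2 at -0.20. Of 76 mitochondrial ribosomal protein genes, which make a separate ribosome, 53 were below 0 with a median of -0.05 and 0 called, and 21 were lower and 11 higher without overlap. Mrps6, the highest of them, was at -0.34 and Mrpl48 at -0.21.

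Of 12 regulators of ribosomal protein synthesis 8 were below 0, where 48.2% of all genes were, with a median of -0.09. Eif4ebp1, a repressor of cap-dependent translation that mTOR inactivates, was the called one, with the block only, where 1.89% of all genes were called lower and 3.71% higher. It had 19.9 and 21.2 CPM in del/del cells, against 37.5 and 38.5 CPM in del/fl cells (log2 fold change -0.89, SE 0.09; adjusted p = 0.0226 with the block and 0.341 without, edgeR). Of 10 p53 targets 7 were below 0 (48.2% of all genes) with a median of -0.08, and 2 were called lower with the block (1.89% of all genes). These were Trp53inp1, with 555 and 574 CPM in del/del cells against 905 and 796 CPM in del/fl cells, and Sesn2, an inhibitor of mTOR signalling, with 192 and 142 CPM in del/del cells against 247 and 188 CPM in del/fl cells. The adjusted p was 0.0390 for Trp53inp1 and 0.0451 for Sesn2 with the block, and 0.401 and 0.538 without it (edgeR).

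Counts at the genes' own rows followed the number of copies. Copies were counted among GENCODE M21 transcripts (GRCm38), as transcripts of other genes that match at least 80% of the member's coding sequence at 90% identity or more. Among 83 members with a coding model the median was 8 copies, between 0 and 76. Rpl21 had 76, Rpl7a 75 and Rpl29 58, and 36 members had at least 10. A copy at 99% identity or more was found for 55 members, and a copy identical over the aligned part of the coding sequence for 21. Levels by number of copies were compared per kilobase of coding sequence, among members counted in every library only. The median was 747 CPM for those with 0 or 1 copy, 163 CPM with 2 to 5, 77.6 CPM with 6 to 12, and 32.9 CPM with 13 or more. Rpl10l, Rpl39l and Rpl3l, uncounted or barely counted, also have 0 or 1 copy but were left out of these medians and of the correlations. Spearman's rho over 80 genes was -0.52, which is a description across genes of the same libraries. The number of copies showed little relation to the log2 fold change (rho 0.11), whose median was between -0.31 and -0.27 in the 4 classes.

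**Figure D3:**
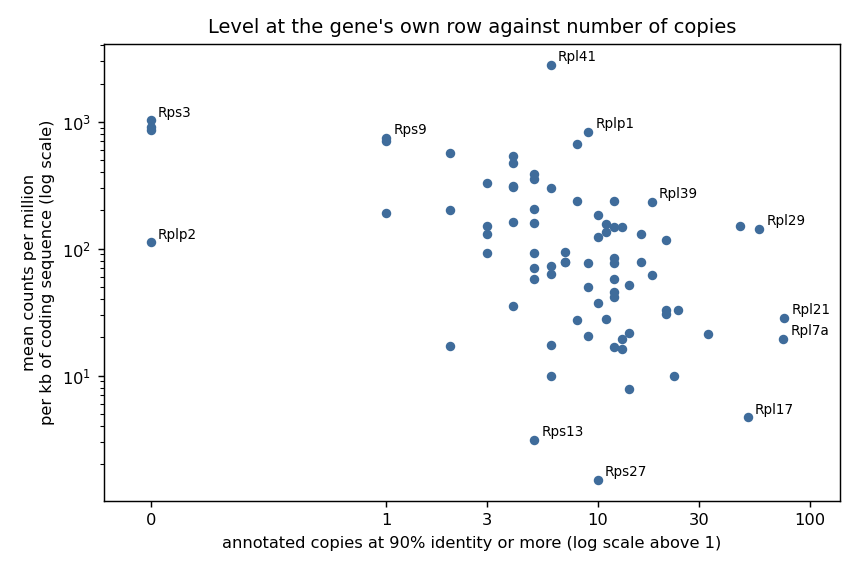
Mean level over the 4 libraries, in CPM per kilobase of coding sequence (log scale), against the number of annotated copies (log scale above 1), each point a counted member. Rps3 with no copy stands near 1027, while Rps27, Rps13 and Rpl17 stand below 5.

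The range of levels was wide for proteins most of which are used in equal numbers. Rpl41 stood highest per kilobase, with 2421 and 2569 CPM in del/del cells and 3277 and 3010 CPM in del/fl cells, but its coding sequence is only 75 bases, so that this scale overstates it. Rps3, Rpl8 and Rplp1 were also among the highest, with means of 1027, 911 and 836 CPM per kilobase. The lowest counted were Rps27, Rps13, Rpl17, Rps6 and Rps12, all with means below 10 CPM per kilobase (3.12 for Rps13, 4.69 for Rpl17, 7.86 for Rps6 and 9.86 for Rps12). Rps6, the small subunit protein phosphorylated downstream of mTOR, had 153 and 184 counts in del/del cells and 202 and 217 in del/fl cells. All 5 of these lowest genes have at least 5 annotated copies. Rps13 had 38 and 38 counts in del/del cells and 31 and 78 in del/fl cells. Counts at its copy Rps13-ps1 differed by line, with 15 and 845 in del/del cells and 23 and 1014 in del/fl cells. The cause was not tested.

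Rows of the copies themselves held many counts. Of 971 annotated copies, 141 had a row of their own in the table, 25 of which were at 0 in all libraries and 53 of which had at least 10 counts in each. Together they held 95133 and 103438 counts in del/del libraries, against 109079 and 123128 in del/fl libraries, beside 226057 and 262112 in del/del and 261266 and 314918 in del/fl libraries at the members. As a share of the library the copy rows were at 0.283% and 0.325% in del/del cells, and 0.365% and 0.362% in del/fl cells. Members and copies together held 0.957% and 1.15% in del/del cells, against 1.24% and 1.29% in del/fl cells. The direction was thus that of the members.

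For 14 members, more counts stood at the copies than at the gene in all 4 libraries. Rpl11, which with Rpl5 and 5S RNA can bind Mdm2, had 240 and 575 counts in del/del cells and 319 and 763 in del/fl cells. Its copy Gm10288 on chromosome 3 had 7844 and 9256 counts in del/del cells and 9054 and 11327 in del/fl cells. Rplp1 had 8022 and 9219 counts in del/del cells and 9216 and 10408 in del/fl cells, and its copy Gm10073 on chromosome 8, annotated as protein coding, had 13576 and 15411 in del/del cells and 15717 and 19387 in del/fl cells. Rpl31 had 360 and 359 counts in del/del cells and 410 and 463 in del/fl cells, while Rpl31-ps8 had 5354 and 6322 in del/del cells and 6594 and 7724 in del/fl cells. The others were Rpl9, Rpl12, Rpl23a, Rpl26, Rpl27a, Rpl35, Rpl36a, Rplp0, Rps10, Rps12 and Rps26. Counts given to such a gene and to its copy are uncertain each by themselves.

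**Figure D4:**
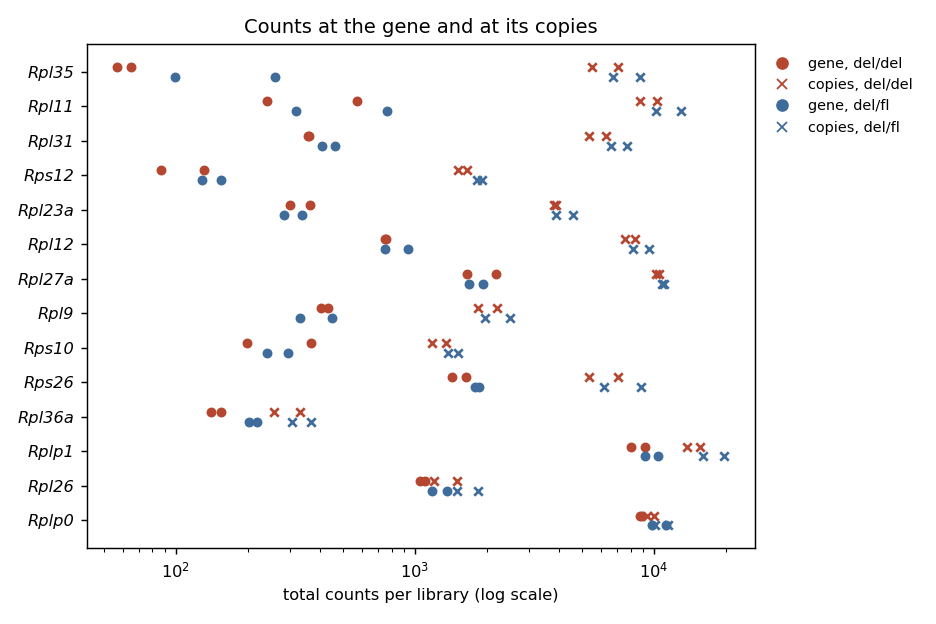
Total counts per library (log scale) at the gene's own row (dots) and summed over the rows of its copies (crosses) for the 14 members with more counts at copies in every library, with del/del above del/fl in each line of the plot. For Rpl35, Rpl11 and Rpl31 the crosses lie over 10 times to the right of the dots.

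Adding the copy rows to their gene left the direction in place. In 81 such families the mean of the log2 fold changes of the 2 lines was below 0 for 75, with a median of -0.28, and was below 0 in both lines for 70. The groups did not overlap and were lower in del/del cells for 54 families, where 49 members did so by their own row, which is part of the family sum. Of all single genes tested, 48.2% were below 0, 36.4% were below 0 in both lines and 22% were lower without overlap. The median level was 149 CPM per kilobase for families, against 92.1 CPM for the own rows. No test was run on the families, which were formed after the members' values were seen.

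The coding sequences of gene and copy show how little separates them. The stretches below are 60 bases of GENCODE M21 transcripts, 5' to 3' in the sense of the coding sequence, with the gene first and its copy after it; capitals mark bases that differ, and positions count from 1 at the first base of the start codon. Rplp1, Rpl11 and Rpl35 are shown because their copies hold more counts than the gene, and Rpl39 as an X-linked member whose lines went opposite ways.
Rpl39, bases 42 to 101: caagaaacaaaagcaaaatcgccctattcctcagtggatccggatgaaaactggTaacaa
Rpl39-ps: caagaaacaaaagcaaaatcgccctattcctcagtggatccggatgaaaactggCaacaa
Rplp1, bases 204 to 263: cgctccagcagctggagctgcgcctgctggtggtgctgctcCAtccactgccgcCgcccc
Gm10073: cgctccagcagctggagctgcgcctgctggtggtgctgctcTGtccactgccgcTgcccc
Rpl11, bases 32 to 91: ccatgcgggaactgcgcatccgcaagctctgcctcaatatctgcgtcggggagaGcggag
Gm10288: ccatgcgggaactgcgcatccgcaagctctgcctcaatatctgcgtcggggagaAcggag
Rpl35, bases 63 to 122: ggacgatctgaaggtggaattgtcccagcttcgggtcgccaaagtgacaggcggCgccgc
Gm2000: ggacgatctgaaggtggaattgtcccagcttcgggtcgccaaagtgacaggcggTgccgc
Gene and copy differed at 1 of 150 aligned bases for Rpl39 (T96C), 1 of 534 for Rpl11 (G86A) and 1 of 369 for Rpl35 (C117T). Rplp1 and Gm10073 differed at 5 of 342 bases (C9T, A53G, C245T, A246G and C258T). In each token the gene's base comes before the position and the copy's base after it. Rps27 and Rps27rt were identical over 252 bases, and Rpl41 and Gm10076 over 75. Rpl39-ps and Rps27rt had no row of their own among the counts, so the counts at these copies are not known. Rpl41 had 6095 and 6132 counts in del/del cells and 7343 and 7679 in del/fl cells, and Gm10076 had 5432 and 5847 in del/del cells and 6022 and 6628 in del/fl cells, so almost as many counts stood at the identical copy as at the gene.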

How the data were processed

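The deposited table gives raw, whole-number counts, with a row for each gene. Column names give genotype and a line number, not the titled sample, so only the total-count column of each of 4 libraries was used, mapped to its genotype. The 8 columns of reads split by parental genome were not used, and the planned comparisons of parental alleles are not reported here. Per the submitters' processing notes, reads were handled on build mm10 with tools that include bcl2fastq, TopHat2 2.0.12 and edgeR. Depth was 29873400 to 34018500 counts per library.

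All genes were fitted with edgeR 4.0.16 (quasi-likelihood, TMM, filterByExpr, threshold 0.05 after Benjamini-Hochberg adjustment, genotype alone in the model) under R 4.3.3. DESeq2 1.42.0, other scalings and single left-out libraries were alternatives. Columns of both genotypes share the 2 line numbers, which pairs them. Deviations from group means correlated at 0.716 within pairs over 14860 genes, so values with line as a block are printed where they change a call. With 2 cultures per genotype, p-values measure only the spread between them.

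CPM is a gene's counts divided by the library total and scaled as usual. Copies were found with blastn 2.17.0 among annotated transcripts. Members, lists and the rule for named genes (X-linked, lowest p, paralogues, highest and lowest levels, called or highest genes of each list) were chosen with earlier results of these data known. Genes with 0 or 1 copy, genes split by line or above 0, and copies named were chosen after their values were seen. Results for 2 members are not reported singly here.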

Additional observations from a re-analysis of the deposited data

Results flagged for a closer look

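The 2 lines moved in opposite directions for 3 named members, and the difference between lines was not tested. The log2 fold change of Rpl10, del/del over del/fl, was -0.62 for line A and 0.26 for line B. That of Rpl39 was -0.40 for line A and 0.77 for line B. Rps27, on 9 to 15 counts per library, had -0.021 for line A and 0.091 for line B.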

How the results depend on the processing

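The share of library counts and the median fold change kept their direction under every alternative run, and no fit without the block called a member. With the replicate block, the count of members called in total counts was 10 by DESeq2 and 1 by edgeR with RLE size factors (an added alternative), against 0 by edgeR with TMM. The block left the difference in library share at -0.152 points (exact sign-flip p = 0.5, the smallest that 2 pairs allow). Leaving out 1 library at a time, the median fold change lay between -0.48 and -0.18 and the share difference between -0.227 and -0.0765 points. Rpl10 lay between -0.51 and 0.12, Rpl39 between -0.21 and 0.61 and Rps27 between -0.34 and 0.33, so their direction depends on 1 library (without del/del line B, Rpl39 was at -0.06, and without del/fl line B at -0.21; without del/del line A, Rpl10 was at 0.12; without del/del line B, Rps27 was at -0.34, and without del/fl line A at -0.20). The cause was not tested. Of the other alternatives for single genes, 199 kept direction and call, and 5, all DESeq2 with the block, passed the threshold. Depth limits the members with under 300 counts in every library, among them Rps27, Rps13, Rpl17, Rps12, Rpl35, Rps6, Rps4y2 and the X-linked Rpl36a. Comparisons of parental alleles, and their other settings, were not run, since those columns were not used.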
